A study of Homo sapiens with 4 samples.

Results

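GDF15, INHBE, INHBA and STC2 encode secreted proteins that cells release under stress, and these 4 genes were taken from 62710 Ensembl genes by their names. They were chosen by their FPKM in these 4 libraries, above all by the opposite GDF15 difference in the cell lines, so their own values below are a description with no test. The libraries came from HGC27 cells given 0.3 µM periplocymarin for 24 h, HGC27 cells given 0.1% DMSO, MKN45 cells given 0.3 µM periplocymarin and MKN45 cells given 0.1% DMSO, with 1 library in each group. Both are human gastric cancer cell lines, and periplocymarin is a cardiac glycoside, a plant steroid that blocks the sodium and potassium pump of the cell membrane. With a single library per group, the spread between cultures is not known, and every interval below covers counting error only. Because bulk RNA was measured, fewer cells with a transcript and less transcript per cell cannot be told apart.

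GDF15 is a distant member of the TGF-beta superfamily that acts on the brainstem through its receptor GFRAL and the co-receptor RET, and it is induced by the integrated stress response, by p53 and by several other stress pathways. INHBA and INHBE encode activin subunits: paired INHBA chains make activin A, a widely used signal through SMAD2 and SMAD3, and paired INHBE chains make activin E, known mainly from the liver. STC2, stanniocalcin 2, is a secreted glycoprotein outside that family that binds and inhibits the protease PAPP-A and so limits the release of insulin-like growth factors. The transcription factor ATF4, the main effector of the integrated stress response, is known to raise GDF15, INHBE and STC2, while INHBA is better known as a target of growth factor and AP-1 signals.

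In GRCh38 with the GENCODE 29 annotation, GDF15 spans bases 18374731 to 18389176 of chromosome 19, plus strand, and holds the microRNA gene MIR3189 on the same strand. INHBE spans 57452323 to 57459280 of chromosome 12, plus strand, and STC2 spans 173314713 to 173329503 of chromosome 5, minus strand, neither overlapped by another gene model. INHBA spans 41667168 to 41705834 of chromosome 7, minus strand, and overlaps the antisense gene INHBA-AS1, whose reads cannot be told apart from it because no strand setting is stated. All 4 are protein-coding genes.

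Of the 4 genes, 3 had an entry in the RefSeq promoter table (GRCh38.p14), and INHBE had none. In the 250 bases before each RefSeq start, both strands were searched for TGATGNNA, where N is any base. It is a loose pattern set here for the composite ATF4 and C/EBP element. The AP-1 site (TGA and TCA parted by any 1 base) and the cyclic AMP element TGACGTCA were also searched. The GC box with the letters GGGCGG, the CCAAT box and the TATA box with the letters TATAAA were searched as well. Windows of 30 bases around some of the matches are shown, with matches in capitals:
GDF15, chr19:18386035-18386064, plus strand, from 123 to 94 bases before the start: gaccCCGCCCagctgtggtcATTGGagtgt
GDF15, chr19:18386116-18386145, plus strand, from 42 to 13 bases before the start: aaagtccggggacTATAAAggccggtccgg
STC2, chr5:173328498-173328527, minus strand, from 113 to 84 bases before the start: gccggggtctcggATTGGtccagccgccgg
INHBA, chr7:41703169-41703198, minus strand, from 108 to 79 bases before the start: cgcTGATGTCAtgctgattccaaCCAATcc
The GDF15 stretch held a TATA box, a CCAAT box read on the opposite strand and a pair of GC boxes, and the STC2 stretch held only a reversed CCAAT box. TGATGNNA was matched in the INHBA stretch alone, as the TGATGTCA shown, and INHBA also had 2 CCAAT boxes and a TATA box. TGATGTCA is 1 letter from TGACGTCA, and whether it is an ATF4 site was not tested. Among the stretches of the same length before 35116 starts, 10.8% held TGATGNNA, 6.57% an AP-1 site, 1.65% TGACGTCA, 42.6% a GC box, 32.0% a CCAAT box and 10.7% a TATA box. The ATF4, AP-1 and cyclic AMP motifs share letters and can overlap in part. In GENCODE 29 the first GDF15 window lies within an exon of 3 GDF15 transcripts, the second within an exon of 2, and the STC2 window within the first exon of 1 STC2 transcript. The INHBA window lies in no INHBA exon, inside the gene model.

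The recovered reads, worked back from the deposited FPKM (reads scaled by gene length and library size), numbered 24884818 in treated HGC27 and 26800152 in vehicle HGC27, and 27676323 in treated MKN45 and 36570736 in vehicle MKN45. The label of gastric cancer cells was set against 10 gastric epithelial markers. MKN45 had 9 of them at 1 FPKM or more in both libraries, summing to 2905 FPKM in treated and 1700 FPKM in vehicle cells. HGC27 had 1 of 10, MUC1, with sums of 1.50 FPKM in treated and 4.47 FPKM in vehicle cells, and instead held 7 of 8 mesenchymal markers, VIM among them. PTPRC and CD3E, which define leukocytes, and all 4 endothelial markers were at 0 or below 0.035 FPKM in every library. LYZ, a lysozyme gene on the leukocyte list, was at 125 FPKM in treated and 161 FPKM in vehicle MKN45.

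GDF15 was lower in treated HGC27 and higher in treated MKN45. It stood at 0.366 FPKM from 18 reads in treated HGC27, against 32.1 FPKM from 2161 reads in vehicle HGC27, which is 87.7-fold lower. The log2 ratio was -6.45, with an exact binomial 95% interval from -7.21 to -5.79. In MKN45 it stood at 177 FPKM from 8821 reads in treated cells, against 66.8 FPKM from 5140 reads in vehicle cells, a 2.65-fold higher level (log2 ratio 1.41, 95% interval 1.36 to 1.46). The order of levels was thus treated MKN45, vehicle MKN45, vehicle HGC27 and treated HGC27, and no neighbouring pair overlapped in its counting interval. Between the lines, the level was 484-fold higher in MKN45 under periplocymarin and 2.08-fold higher in MKN45 under DMSO. By rank of FPKM among all genes, GDF15 was at place 13844 in treated and 964 in vehicle HGC27, and at place 181 in treated and 460 in vehicle MKN45.

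INHBE was lower after periplocymarin in both lines, from very different starting levels. In HGC27 it stood at 6.08 FPKM (436 reads) in treated cells, against 63.5 FPKM (6243 reads) in vehicle cells, 10.5-fold lower with a log2 ratio of -3.39 (95% interval -3.53 to -3.25). In MKN45 it stood at 0.0551 FPKM (4 reads) in treated cells, against 1.30 FPKM (146 reads) in vehicle cells. That is 23.6-fold lower, but with 4 reads the log2 ratio of -4.56 has an interval from -6.46 to -3.17. HGC27 held more INHBE than MKN45 under either treatment, by 110.4-fold in treated and 48.9-fold in vehicle cells. The HGC27 interval of the log2 ratio lies inside the wider MKN45 interval.

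STC2 was modestly lower after periplocymarin in both lines. In HGC27 it stood at 21.9 FPKM in treated cells, against 40.2 FPKM in vehicle cells, 1.84-fold lower (log2 ratio -0.88, 95% interval -0.94 to -0.81). In MKN45 it stood at 32.1 FPKM in treated cells, against 54.4 FPKM in vehicle cells, 1.70-fold lower (log2 ratio -0.76, 95% interval -0.82 to -0.71). Its reads ran between 2612 and 10148, and the 4 levels did not overlap in their counting intervals. The treated level of MKN45 lay below the vehicle level of HGC27, and the line difference was 1.46-fold in favour of MKN45 in treated and 1.35-fold in vehicle cells. Among the 3 genes detected in all libraries it was the one most alike in level between the lines.

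INHBA was close to silent. It was listed at 0 in treated HGC27, vehicle HGC27 and vehicle MKN45, and at 0.0101 FPKM in treated MKN45, about 2 reads at its GENCODE 29 length. A count of 0 allows up to 0.0153 FPKM in treated HGC27, 0.0112 FPKM in vehicle HGC27 and 0.00980 FPKM in vehicle MKN45 (3 reads), so all 4 libraries lay at or below that floor and no fold is given.

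**Figure D1:**
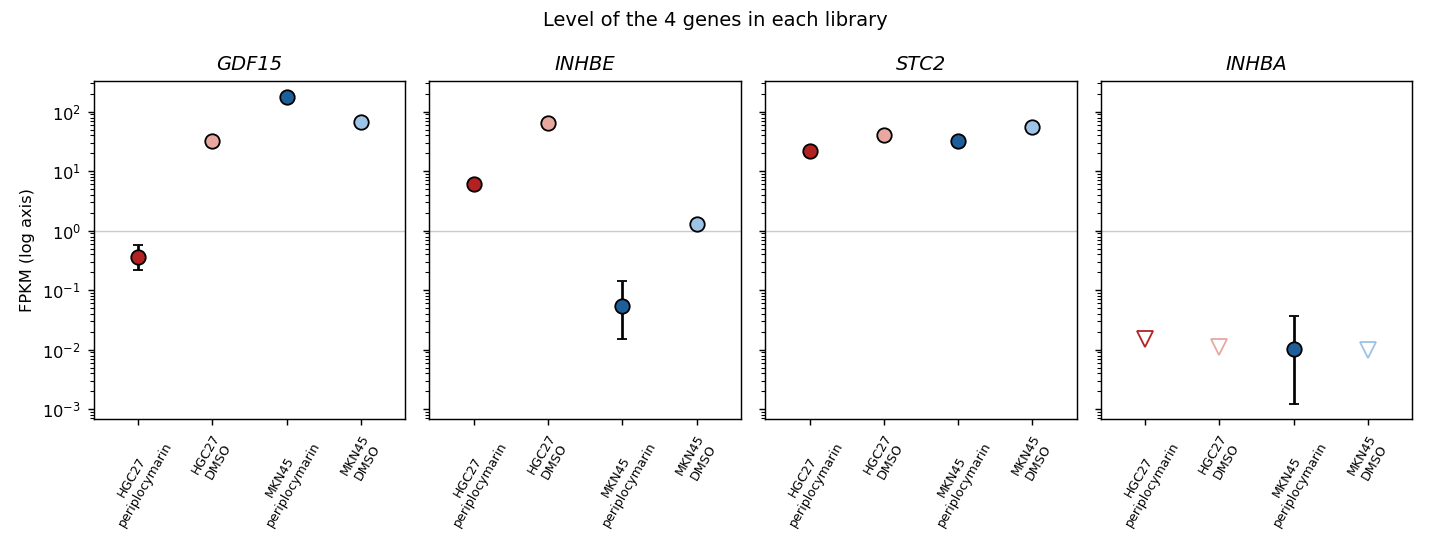
Level of each gene in FPKM on a log axis in the 4 libraries; bars are exact Poisson 95% intervals of the reads (counting error only), open triangles mark the level of 3 reads where a gene was listed at 0, and the grey line marks 1 FPKM. GDF15 runs from 0.366 FPKM in treated HGC27 to 177 FPKM in treated MKN45, INHBE is above 1 FPKM in 3 libraries, STC2 stays between 21.9 and 54.4 FPKM, and INHBA is near 0 throughout.

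Differences were then placed among all genes on the log2(FPKM + 1) scale, treated minus vehicle, which understates the change of low genes. In a line, measured genes were those whose treated and vehicle libraries averaged 1 FPKM or more, and a call was a difference of at least 1 either way. GDF15 and STC2 were measured in both lines, INHBE in HGC27 alone (its MKN45 mean was 0.678 FPKM) and INHBA in neither. The difference in HGC27 was -4.60 for GDF15, -3.19 for INHBE and -0.85 for STC2. Of these 3 measured genes 2 were at least 2-fold lower in HGC27, where 10.4% of 11821 genes were, and none was higher, where 9.72% were. In MKN45 the difference was 1.39 for GDF15 and -0.74 for STC2, and -1.12 for INHBE below the measured level. One of the 2 measured genes was at least 2-fold higher in MKN45, where 8.21% of 11895 genes were, and none was lower, where 8.94% were. Over all measured genes 1149 were higher and 1228 lower in treated HGC27, and 977 and 1064 in treated MKN45, against 487 and 1932 in HGC27 and 565 and 1455 in MKN45 with libraries scaled to their totals alone. Since the members' differences led to the choice of the genes, nothing is read from their counts.

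From the lowest, GDF15 was at rank 2 and INHBE at rank 12 of 11821 genes in HGC27, and STC2 at rank 1599. In MKN45 GDF15 was at rank 331 from the highest and STC2 at rank 1779 from the lowest of 11895 genes. The GDF15 difference in HGC27 minus that in MKN45 was -5.99, the lowest of the 10071 genes measured in both lines. For STC2 the same value was -0.10. Genes at least 2-fold lower in HGC27 and at least 2-fold higher in MKN45, as GDF15 was, made up 0.109% of the 10071 (11 genes), and the reverse pattern 0.0993% (10 genes). Lower by that much in both lines were 3.35%, and higher in both 3.38%, and none of the 4 genes was in either set. INHBE, at -3.19 in HGC27 and -1.12 in MKN45, was left out because its MKN45 mean was 0.678 FPKM. With 4 libraries no test of a difference between lines can be made.

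**Figure D2:**
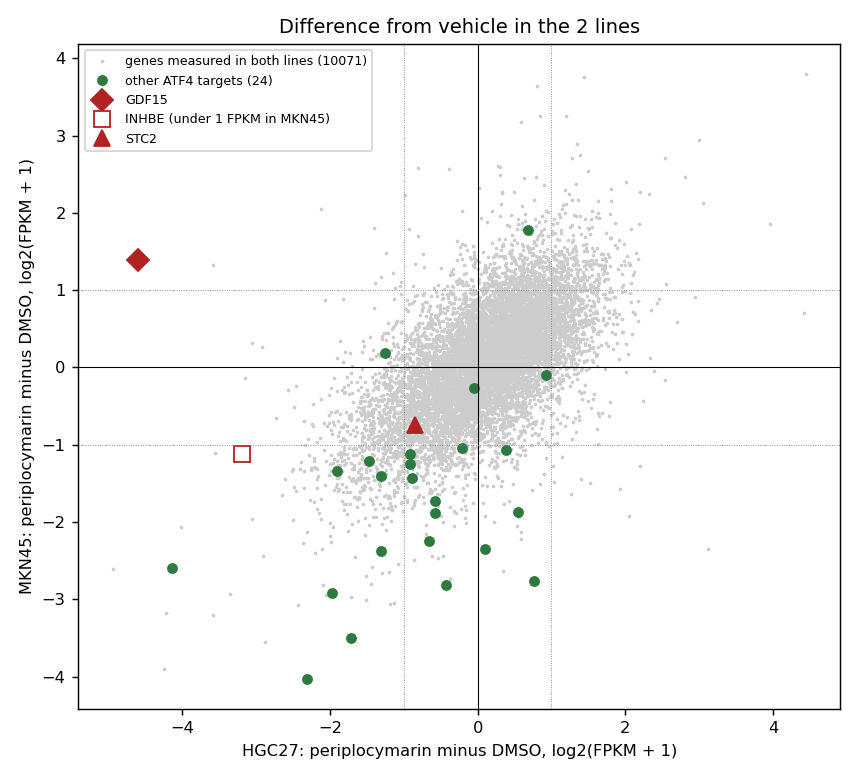
Treated minus vehicle difference of log2(FPKM + 1) in HGC27 (horizontal) and MKN45 (vertical) for the 10071 genes measured in both lines (grey), other ATF4 targets (green) and the secreted factors (red); INHBE is drawn open because its MKN45 mean was 0.678 FPKM, and dotted lines mark differences of 1. GDF15 lies at -4.60 and 1.39, to the upper left of nearly all other genes, while STC2 lies at -0.85 and -0.74 within the main cloud.

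The TGF-beta superfamily has 33 ligand genes on the list used here, of which 13 reached 1 FPKM in at least 1 library. Most of their summed FPKM came from few genes. In treated HGC27 GDF15 made up 0.322% of the sum and INHBE 5.34%, against 21.6% and 42.8% in vehicle HGC27. In treated MKN45 GDF15 made up 76.6% and INHBE 0.0238%, against 62.5% and 1.22% in vehicle MKN45. The summed level was 114 FPKM in treated and 148 FPKM in vehicle HGC27, and 232 FPKM in treated and 107 FPKM in vehicle MKN45. The highest ligand was BMP5, a bone morphogenetic protein, in treated HGC27 at 31.2 FPKM, INHBE in vehicle HGC27 and GDF15 in both MKN45 libraries.

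The other ligands were tested over both lines with limma on log2(FPKM + 1), the line entering as a block, with Benjamini-Hochberg adjustment over 12353 genes. In that fit 3.43% of genes rose and 3.17% fell, and the median fitted log2 fold was 0.06. At an unadjusted p under 0.05 limma had 3511 of the 12353 genes. Of 8 ligands tested besides GDF15 and INHBE, 1 rose and none fell, with a median of 0.44. BMP4, a morphogen of the gut and its stroma, rose by 1.58 ± 0.32 (moderated SE, limma adjusted p = 0.0291, higher in 2 of 2 lines). It stood at 10.6 FPKM in treated and 1.77 FPKM in vehicle HGC27, and at 38.3 FPKM in treated and 17.4 FPKM in vehicle MKN45. Several others had most of their level in HGC27. BMP5 was at 31.2 FPKM in treated and 10.5 FPKM in vehicle HGC27, and under 0.12 FPKM in MKN45. TGFB2 was at 7.89 and 2.79 FPKM in treated and vehicle HGC27 and listed at 0 in MKN45, and TGFB3 was at 9.88 and 3.83 FPKM in treated and vehicle HGC27 and under 0.57 FPKM in MKN45. TGFB1, the best studied ligand of the family, was at 17.1 FPKM in treated and 8.41 FPKM in vehicle HGC27, and at 4.07 FPKM in treated and 4.32 FPKM in vehicle MKN45. GDF11, a close relative of myostatin, was at 16.5 and 12.7 FPKM in treated and vehicle HGC27 and at 1.72 and 1.98 FPKM in treated and vehicle MKN45. BMP2 ran between 2.74 and 3.94 FPKM in the 4 libraries and BMP7 between 2.79 and 9.58 FPKM. BMP8B, LEFTY1 and AMH reached 1 FPKM only in vehicle MKN45, at 2.31, 2.02 and 1.55 FPKM. None of the tested ones among these passed limma, and BMP8B, LEFTY1 and AMH were too low to be tested.

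**Figure D3:**
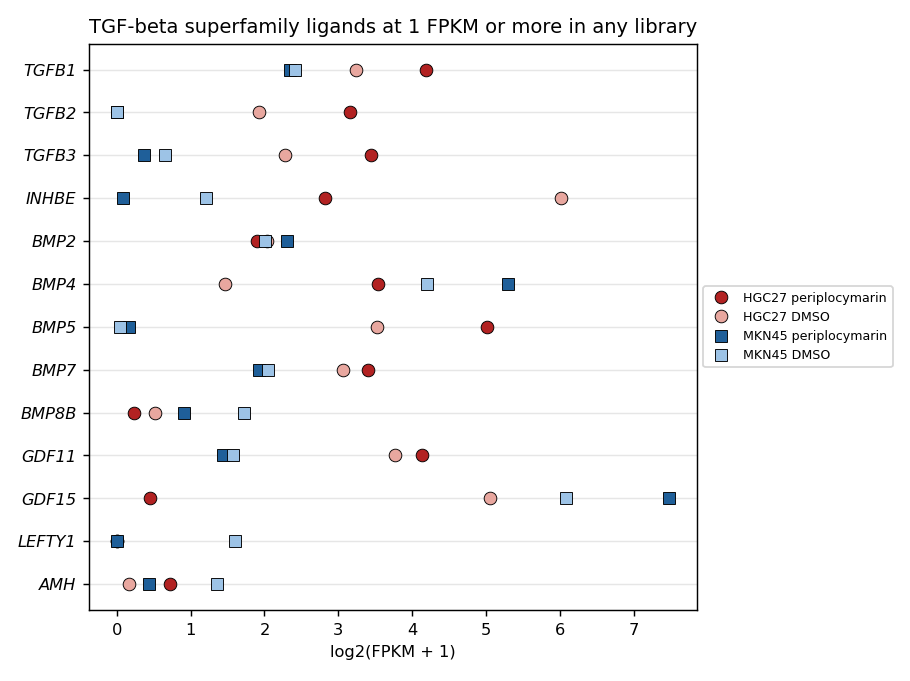
log2(FPKM + 1) of the 13 TGF-beta superfamily ligands at 1 FPKM or more in any library; circles are HGC27 and squares MKN45, dark for periplocymarin and light for DMSO. GDF15 and INHBE span the widest ranges, and BMP4 is higher after periplocymarin in both lines.

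Other activin subunits were low. INHBB, the beta B subunit, was at 0.689 FPKM in treated and 0.754 FPKM in vehicle HGC27, and at 0.746 FPKM in treated and 0.271 FPKM in vehicle MKN45. INHA, the inhibin alpha subunit, and INHBC, the beta C subunit, were listed at 0 in both treated libraries, with at most 0.360 FPKM in vehicle cells. INHBE was therefore the only activin subunit gene above 1 FPKM in any library.

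Activin receptors and SMAD proteins, which carry the signal inside the cell, did not pass the test. Of 12 tested on a list of 15, none rose or fell, and the median fitted log2 fold was 0.45, against 0.06 over all genes. At an unadjusted p under 0.05 limma had 1 of the 12, and limma-voom on recovered reads called 1 as risen. ACVR1B, the type I receptor of activin A, was at 10.8 FPKM in treated and 5.79 FPKM in vehicle HGC27, and at 18.0 FPKM in treated and 14.4 FPKM in vehicle MKN45. ACVR2A, a type II receptor, was at 3.42 and 1.47 FPKM in treated and vehicle HGC27 and at 2.31 and 1.58 FPKM in treated and vehicle MKN45. ACVR1C, the type I receptor ALK7 that activin E uses in fat tissue, stayed at or under 0.320 FPKM in every library. TGFBR3, the co-receptor betaglycan that inhibin needs, was the nearest to the threshold, at 5.26 and 1.97 FPKM in treated and vehicle HGC27 and at 5.13 and 2.17 FPKM in treated and vehicle MKN45 (limma adjusted p = 0.0647). SMAD4, the partner of all receptor-driven SMAD proteins, was at 6.37 FPKM in treated and 4.36 FPKM in vehicle HGC27, and in MKN45 it was listed at 0 in treated and at 0.00414 FPKM in vehicle cells.

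Among the antagonists, FSTL3, a secreted activin trap, was at 17.5 FPKM in treated and 4.96 FPKM in vehicle HGC27, and at 0.595 FPKM in treated and 1.19 FPKM in vehicle MKN45. BAMBI, a decoy receptor, was at 31.4 FPKM in treated and 9.54 FPKM in vehicle HGC27, and at 2.39 FPKM in treated and 4.87 FPKM in vehicle MKN45. Both were thus higher in treated HGC27 and lower in treated MKN45. Of these 2 genes tested 0 passed limma, 0 had an unadjusted p under 0.05 and limma-voom called 0. The test looks for a change shared by both lines, so it cannot decide on opposite changes like these. FST, follistatin, stayed under 0.77 FPKM.

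Neither line showed the receptor of GDF15. GFRAL was listed at 0 in all 4 libraries, and RET was listed at 0 in the treated libraries and did not exceed 0.0212 FPKM in vehicle cells. FURIN, a protease that cuts precursors of this family, was at 1.63 FPKM in treated and 2.32 FPKM in vehicle HGC27, and at 12.6 FPKM in treated and 19.6 FPKM in vehicle MKN45. MMP14, a membrane protease reported to cut GFRAL, was at 114 FPKM in treated and 53.2 FPKM in vehicle HGC27, and at 10.1 FPKM in treated and 20.9 FPKM in vehicle MKN45. Of the 4 genes tested in this group 0 passed limma, 0 had an unadjusted p under 0.05 and limma-voom called 0, and their median fitted log2 fold was -0.04. MMP14 was higher in treated HGC27 and lower in treated MKN45, which a test of a change shared by both lines cannot decide.

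The partners of STC2 were mixed. PAPPA, the protease it inhibits, was at 0.0220 FPKM in treated and 0.286 FPKM in vehicle HGC27 and was listed at 0 in MKN45, and PAPPA2 was listed at 0 throughout. IGFBP4, the binding protein that PAPP-A cuts, was at 56.3 FPKM in treated and 69.6 FPKM in vehicle HGC27, and at 29.3 FPKM in treated and 71.1 FPKM in vehicle MKN45. STC1, the paralog of STC2, was at 1.62 FPKM in treated and 5.37 FPKM in vehicle HGC27 and under 0.1 FPKM in MKN45. Of 7 genes tested in this group none passed limma, 1 had an unadjusted p under 0.05 and limma-voom called 1 as fallen, with a median fitted log2 fold of -0.20.

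The factors that are known to drive these genes were described next. Of 22 regulators tested, 1 rose, 3 fell and 18 did not pass, with a median fitted log2 fold of -0.26. Over all tested genes 3.43% rose and 3.17% fell. ATF4 mRNA, whose protein is controlled mainly by translation, was at 180 FPKM in treated and 216 FPKM in vehicle HGC27, and at 220 FPKM in treated and 202 FPKM in vehicle MKN45. CEBPB, a C/EBP factor that pairs with ATF4, fell by 1.84 ± 0.33 (limma moderated SE, adjusted p = 0.0247, lower in 2 of 2 lines). Its level stood at 10.5 FPKM in treated and 27.5 FPKM in vehicle HGC27, and at 2.71 FPKM in treated and 18.2 FPKM in vehicle MKN45. TRIB3, a pseudokinase that restrains ATF4, and XBP1, a factor of the unfolded protein response, also fell, and KLF6, a zinc finger factor of the immediate early response, rose by 1.24 ± 0.29 (limma adjusted p = 0.0413, but 0.0816 with quantile normalization). DDIT3, which encodes the stress factor CHOP, was at 24.8 and 47.6 FPKM in treated and vehicle HGC27 and at 9.21 and 23.4 FPKM in treated and vehicle MKN45, and did not pass (limma adjusted p = 0.0502).

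For some regulators the values in the lines are given side by side. None of the 3 passed the test of a change shared by both lines, and a difference between the lines was not tested. EGR1, an immediate early factor reported to act on the GDF15 promoter, was at 0.447 FPKM in treated and 0.524 FPKM in vehicle HGC27, and at 16.6 FPKM in treated and 5.92 FPKM in vehicle MKN45. ATF3, a stress factor that binds ATF sites, was at 6.70 FPKM in treated and 17.4 FPKM in vehicle HGC27, and at 3.10 FPKM in treated and 2.61 FPKM in vehicle MKN45. NUPR1, a stress-induced cofactor, was at 47.5 FPKM in treated and 27.5 FPKM in vehicle HGC27, and at 0.289 FPKM in treated and 7.73 FPKM in vehicle MKN45. The part of these regulators in the GDF15 difference was not tested.

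**Figure D4:**
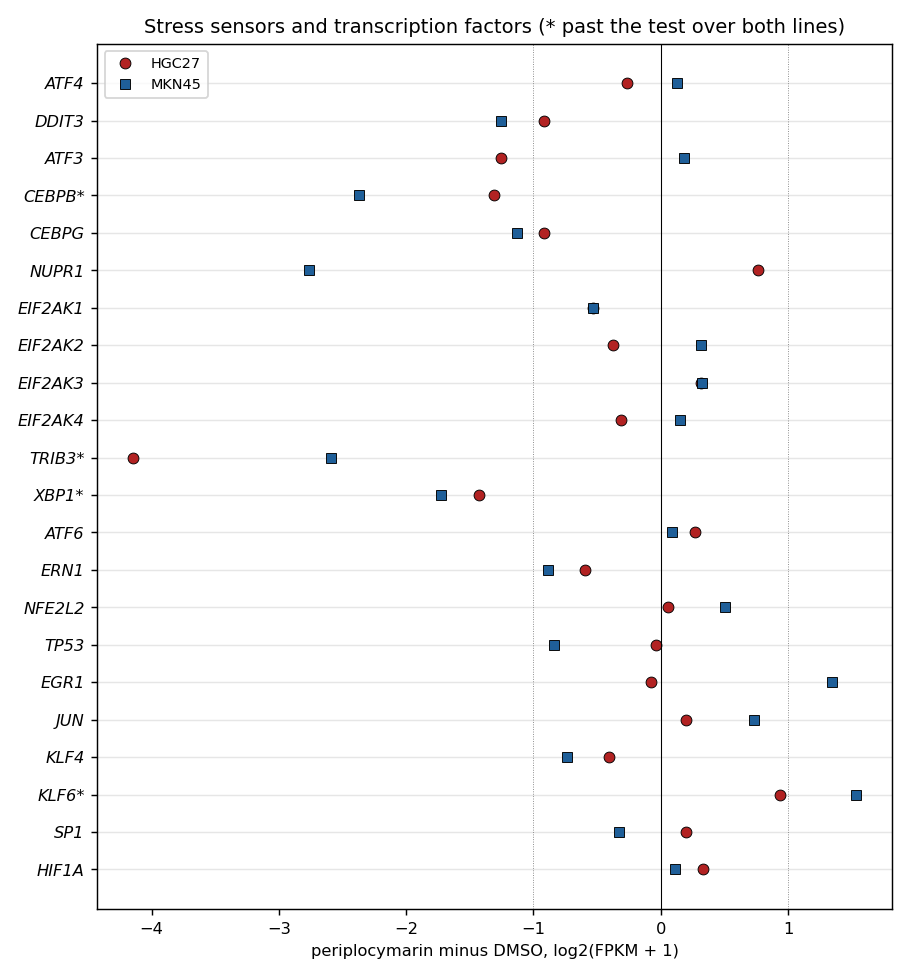
Treated minus vehicle difference of log2(FPKM + 1) for 22 stress sensors and transcription factors in HGC27 (circles) and MKN45 (squares); dotted lines mark differences of 1, and asterisks mark genes past the limma test over both lines. CEBPB, TRIB3 and XBP1 lie left of 0 in both lines, KLF6 right of 0 in both, and NUPR1 on opposite sides.

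Of 27 ATF4 targets tested besides GDF15, INHBE and STC2, 10 fell, none rose and 17 did not pass in limma. Over all tested genes 3.17% fell and 3.43% rose. At an unadjusted p under 0.05 in limma 1 of the 27 was higher and 17 lower. With limma-voom 1 rose and 14 fell. The median fitted log2 fold of the 27 was -1.13. The fitted log2 fold was -3.37 ± 0.37 for TRIB3, -3.17 ± 0.38 for DDIT4, an inhibitor of mTORC1, -2.61 ± 0.40 for CHAC1, which breaks down glutathione, and -2.44 ± 0.32 for PCK2, the mitochondrial PEP carboxykinase (moderated SE). Within the lines, 11 of 27 were at least 2-fold lower in treated HGC27 (median difference -0.89), against 10.4% of all measured genes. Of 24 measured in MKN45, 20 were at least 2-fold lower in treated cells (median -1.58), against 8.94% of all measured genes. PPP1R15A, a phosphatase subunit that ends the stress response, was the only one at least 2-fold higher in treated MKN45, at 34.1 FPKM in treated and 9.24 FPKM in vehicle cells. The part of ATF4 in the GDF15 differences was not tested.

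GDF15 is also a p53 target. Of 19 p53 targets tested none rose and 1 fell. At an unadjusted p under 0.05 in limma 1 was higher and 3 were lower, and limma-voom called 1 as risen and 2 as fallen. SESN2, a sestrin that ATF4 controls as well, fell by 1.34 ± 0.28 (moderated SE, limma adjusted p = 0.0314). Over all tested genes 3.43% rose and 3.17% fell. CDKN1A, the cell cycle inhibitor p21, was at 3.97 FPKM in treated and 3.96 FPKM in vehicle HGC27, and at 23.2 FPKM in treated and 13.9 FPKM in vehicle MKN45. MDM2, the ubiquitin ligase of p53, was at 9.33 and 6.97 FPKM in treated and vehicle HGC27 and at 71.1 and 41.3 FPKM in treated and vehicle MKN45. AEN, an exonuclease induced by p53, was the only target at least 2-fold higher in treated MKN45, at 36.2 FPKM in treated and 13.8 FPKM in vehicle cells. Of the 19 targets measured in that line 2 were at least 2-fold lower. Over all measured genes in MKN45 8.21% were higher and 8.94% lower by that much. The median difference of the list was 0.05 in HGC27 and 0.02 in MKN45. The part of p53 in the GDF15 differences was not tested.

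Other secreted factors linked to stress numbered 35, of which 23 were tested. Of these, 4 rose and 2 fell, 17 did not pass, and the median fitted log2 fold was 0.40. Over all tested genes 3.43% rose and 3.17% fell. With limma-voom on recovered reads 9 rose and 3 fell, and 8 were higher and 3 lower at an unadjusted p under 0.05 in limma. ADM2, a peptide of the calcitonin family and an ATF4 target, fell by 2.35 ± 0.35 (limma moderated SE, adjusted p = 0.0192). Its level stood at 5.73 FPKM in treated and 21.1 FPKM in vehicle HGC27, and at 0.205 FPKM in treated and 8.48 FPKM in vehicle MKN45. VEGFA, the angiogenic growth factor, fell by 1.36 ± 0.28 (limma adjusted p = 0.0291). The matrix proteins CCN1, CCN2 and THBS1, the last an activator of latent TGF-beta, and the vasodilator peptide ADM rose. THBS1 stood at 4.67 FPKM in treated and 1.74 FPKM in vehicle HGC27, and at 5.16 FPKM in treated and 1.24 FPKM in vehicle MKN45. FGF21, a hormone of the liver that ATF4 induces, was at 8.40 FPKM in treated and 28.5 FPKM in vehicle HGC27, and in MKN45 it was listed at 0 in treated and at 0.362 FPKM in vehicle cells. It did not pass (limma adjusted p = 0.0918). DKK1, a secreted inhibitor of WNT signals, was at 2.73 FPKM in treated and 3.89 FPKM in vehicle HGC27, and at 222 FPKM in treated and 36.8 FPKM in vehicle MKN45, the same directions as GDF15. DKK1 did not pass either, but a test of a change shared by both lines cannot decide on opposite directions. Among others on the list, AREG and LIF also had these directions, at 0.544 FPKM or less in HGC27.

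Likeness to each gene was measured as the Euclidean distance of log2(FPKM + 1), centred on each gene's mean over the 4 libraries. For GDF15 the nearest of the tested genes was ESRP1, an epithelial splicing regulator, at a distance of 1.42, then CALB2 (2.12), GPRC5B (2.35), STEAP3 (2.48) and the desmosome gene DSP (2.53). ESRP1 was at 0.0348 FPKM in treated and 7.64 FPKM in vehicle HGC27, and at 76.3 FPKM in treated and 60.8 FPKM in vehicle MKN45. A small distance here includes the gap between the lines, so it need not mean the same differences after periplocymarin. Treated minus vehicle in HGC27 and MKN45 was -3.06 and 0.32 for ESRP1, -1.86 and 0.34 for CALB2, and -1.39 and 1.09 for GPRC5B. The same values were -1.60 and -0.13 for STEAP3, and -1.03 and 1.11 for DSP. For INHBE the nearest was FGF21, at 1.19, then ZNF572 (1.20), DSC1 (1.26), ADGRA2 (1.27) and the noncoding HOTTIP (1.27). For STC2 the nearest was MPHOSPH8, a chromatin protein, at 0.0464, at 3.56 FPKM in treated and 7.05 FPKM in vehicle HGC27 and at 5.43 FPKM in treated and 10.2 FPKM in vehicle MKN45. The next for STC2 were an Ensembl gene without a symbol (0.0664), CEP19 (0.0752), ZFP41 (0.0841) and the pseudogene RANP1 (0.0847). The distance is not scaled and grows with a gene's own range over the libraries, so distances are not compared between GDF15, INHBE and STC2. INHBA was too low to be compared.

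**Figure D5:**
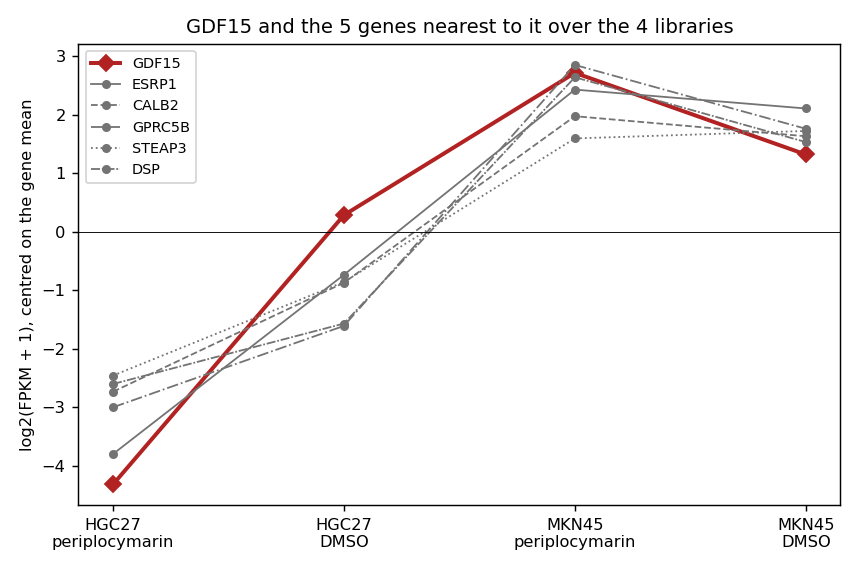
log2(FPKM + 1) centred on each gene's mean over the 4 libraries, for GDF15 (red) and the 5 tested genes nearest to it (grey, told apart by line style). All 6 are lowest in treated HGC27 and high in both MKN45 libraries, and ESRP1 has the smallest distance, 1.42. The treated minus vehicle difference in MKN45 is 1.39 for GDF15, 0.32 for ESRP1, 0.34 for CALB2 and 1.09 for GPRC5B. It is -0.13 for STEAP3 and 1.11 for DSP.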

How the data were processed

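Poly(A) RNA libraries from HGC27 and MKN45 cells, 1 per line and treatment, were grouped by their titles. The authors deposited FPKM, a unit inferred from the values since no header names it. Per the submitters' processing notes the tools include HISAT2 2.1.0 and fastp 2.0, and the build is hg38. The counter, annotation and strand setting: not given in the sources used here. Reads were recovered from the steps between low values with GENCODE 29 lengths, or, where those gave no whole number, the length nearest to them that did. All 20299 genes above 0 in at least 3 libraries came out whole within 0.0001 reads. The library sizes implied by the deposited values were 0.862 to 1.20 times the recovered totals.

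Symbols matched 62639 of 62710 IDs. limma 3.58.1 (R 4.3.3; lmFit, eBayes with trend) was fitted to log2(FPKM + 1) with line as a block, for genes averaging 1 FPKM and 10 recovered reads or more, at an adjusted p under 0.05. It has 1 residual and 8.53 prior degrees of freedom, so its errors come mostly from other genes. Fitting and recovery were tested on simulated data. Genes were named by role, by passing the test (up to 4 a list), or as the 5 nearest in profile; ATF4, ATF3, DDIT3, EGR1, NUPR1, DKK1, THBS1, VEGFA, PPP1R15A, CDKN1A, MDM2, AEN, ID1 and LYZ were named after their values were seen, as were the printed promoter windows. The members, the lists and the tests were chosen with earlier results of these data known. Alternatives were another pseudocount, scaling, quantile normalization, other filters, no line block and limma-voom on recovered reads.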

Additional observations from a re-analysis of the deposited data

Results flagged for a closer look

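GDF15 was lower in treated HGC27 and higher in treated MKN45. On the log2(FPKM + 1) scale, treated minus vehicle was -4.60 in HGC27 and 1.39 in MKN45, and HGC27 minus MKN45 was -5.99. With 1 library per group the difference between lines was not tested.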

How the results depend on the processing

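GDF15, INHBE and STC2 kept their directions under the 3 alternatives that apply to them. Outside the marker lists, 18 listed genes passed the test, not all of them named above. These 18 kept their directions under every alternative in which they were tested. With a pseudocount of 0.1 the differences were -6.11 (GDF15, HGC27), -3.36 (INHBE, HGC27) and -3.17 (INHBE, MKN45), and HGC27 minus MKN45 was -7.52 for GDF15 and -0.19 for INHBE, against -2.06 for INHBE with the pseudocount of 1, -2.38 with totals alone and -2.72 with quantile normalization. INHBE in MKN45 rests on 4 treated reads, which the pseudocount of 1 compresses. With libraries scaled to their totals alone, which moved the median of all measured genes by -0.28 in HGC27 and -0.18 in MKN45, the differences were 1.17 (GDF15, MKN45), -3.52 (INHBE, HGC27), -1.19 and -0.96 (STC2, HGC27 and MKN45), with -0.22 between lines for STC2. With quantile normalization they were 1.04 (GDF15, MKN45), -3.59 (INHBE, HGC27), -1.35 and -1.10 (STC2, HGC27 and MKN45), with -0.25 between lines for STC2. STC2 thus passed 2-fold in HGC27 under both scalings and in MKN45 under quantile normalization.

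Over both lines 424 genes rose and 392 fell. A pseudocount of 0.1 gave 750 and 730, limma-voom on recovered reads 857 and 668, and a floor of 10 FPKM 1049 and 199. Totals alone gave 365 and 1164, and quantile normalization 231 and 389. Without the filter on low values, or without the line block, limma called 0 either way, with 4306 and 696 genes at an unadjusted p under 0.05. All 18 listed genes that had passed lost their call. KLF6 lost its call with quantile normalization too (limma adjusted p = 0.0816, with a range of 0.0012 to 0.83 over its alternatives). Of the other ATF4 targets, 14 to 18 of 27 fell under 4 alternatives and 17 of 23 tested at the 10 FPKM floor. The median fitted log2 fold turned to -0.05 for p53 targets with totals alone and to 0.0044 for the STC2 partners with quantile normalization. At the 10 FPKM floor only 1 gene of the GDF15 receptor group was tested, MMP14, at 0.05. Without the filter on low values the median turned to -0.03 for the ligands and -0.07 for the antagonists. It turned to 0.01 for the GDF15 receptor group and -0.01 for the SMAD2/3 response genes. Genes at least 2-fold apart, 1149 higher and 1228 lower in HGC27 (48.3% higher) and 977 and 1064 in MKN45 (47.9% higher), changed under totals alone to 487 higher and 1932 lower in HGC27 (20.1% higher) and 565 higher and 1455 lower in MKN45. Lower genes numbered 1847 in HGC27 and 1726 in MKN45 with the 0.1 pseudocount, and 682 were higher in HGC27 with quantile normalization. At 10 FPKM 150 were lower in HGC27 (84.1% higher), and 611 higher and 210 lower in MKN45 (74.4% higher). Genes lower in HGC27 and higher in MKN45 numbered 28 with the 0.1 pseudocount and 6 with quantile normalization, against 11, and the reverse 24 with that pseudocount, against 10. The cause of these shifts was not tested. No library could be left out, since each group has 1. INHBA, outside the fit, was given no alternative values.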

Other observations

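Genes listed here as responding to activin and TGF-beta through SMAD2 and SMAD3 were also looked at. Whether these signals act on each listed gene in HGC27 or MKN45 was not tested. SMAD4 was listed at 0 in treated and at 0.00414 FPKM in vehicle MKN45. Of 9 tested on a list of 14, CCN2, a matrix protein that YAP controls as well, rose by 1.78 ± 0.29 (moderated SE, limma adjusted p = 0.0232). None fell and 8 did not pass, with a median fitted log2 fold of 0.28. Over all tested genes 3.43% rose and 3.17% fell. SMAD7, the feedback inhibitor of the pathway, was at 4.17 FPKM in treated and 1.89 FPKM in vehicle HGC27, and at 1.32 FPKM in treated and 0.701 FPKM in vehicle MKN45. ID1, an inhibitor of differentiation, was at 49.2 FPKM in treated and 33.1 FPKM in vehicle HGC27, and at 8.88 FPKM in treated and 36.6 FPKM in vehicle MKN45.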
